A study of Homo sapiens with 7 samples.

Results

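The beta-globin cluster on human chromosome 11 holds 5 protein-coding genes, HBE1, HBG2, HBG1, HBD and HBB, and CTCF peaks were collected from 100 kb on one side of these genes to 100 kb on the other. The GENCODE gene records put this window at chr11:5146694-5626882 of hg19, a stretch of 480.2 kb. It held 11 of the 33094 peaks of the control list and 9 of the 32917 peaks of the PDS list. The records of HBG2 and HBE1 include long transcripts that run upstream as far as 5526882, so positions below are given relative to the main (Ensembl canonical) transcript of each gene. By main transcripts the genes span 44.48 kb (chr11:5246694-5291175), and a window of 100 kb on each side held 3 peaks of each list.

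CTCF was immunoprecipitated from K562 cells, an erythroleukemia line derived from chronic myeloid leukemia. The 4 groups were control cells without ligand, with 2 samples for CTCF and 1 for IgG, and, with 2 samples for each antibody, cells kept with 10 µM pyridostatin (PDS), a ligand that stabilizes G-quadruplexes (G4s), for 24 h. All cells were grown in low-serum medium, and K562 carries a rearranged genome whose copy number at this locus was not analysed here. Peaks were called once per condition on both CTCF samples together, so each peak has 1 fold enrichment over IgG and 1 p-value per condition, without a replicate spread, and read depth is unknown. Globin transcripts were not measured, so the erythroid label could not be checked against its markers.

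The globin genes of this cluster encode the beta-like chains of hemoglobin and are switched on in turn during development: HBE1 in the embryo, HBG1 and HBG2 in the fetus, HBD and HBB after birth. A locus control region upstream of HBE1 acts as their shared distal enhancer. CTCF binds at the outer end of this region and again downstream of HBB, at elements known as HS5 and 3′HS1, which flank the genes as insulators and can be held together as the base of a chromatin loop. CTCF reads a directional DNA motif, and loop anchors usually carry motifs that point toward each other. K562 cells are known to transcribe the embryonic and fetal genes rather than HBB. G4s are structures of G-rich DNA built of stacked guanine tetrads, and the study asked whether they contribute to CTCF recruitment. The lists do not name hypersensitive sites, so peaks are called here by the globin gene of the cluster they lie closest to.

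The CTCF sites of the 5 peak positions with a motif past a set limit are shown first, because the peaks on either side of the genes are compared through them. Each was the best position of a 23-letter CTCF weight matrix, built from shared control peaks of other chromosomes, within 300 bp around the peak centre. All 5 scored above 13.82, the 99th percentile of windows 2 kb away from peaks. Each line reads 5′ to 3′ on the strand of the motif, in hg19, with the 15-letter core in capitals and 40 bases on either side.
HBB-side site (chr11:5226156-5226250, plus strand): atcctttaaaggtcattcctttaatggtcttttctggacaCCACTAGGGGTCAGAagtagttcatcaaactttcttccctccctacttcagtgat
HBE1-side site (chr11:5312624-5312718, minus strand): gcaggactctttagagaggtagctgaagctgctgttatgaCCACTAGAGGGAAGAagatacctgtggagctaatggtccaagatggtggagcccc
Site 111 kb upstream of HBE1 (chr11:5402119-5402213, minus strand): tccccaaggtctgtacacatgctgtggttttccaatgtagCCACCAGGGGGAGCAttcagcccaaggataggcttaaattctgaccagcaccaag
Site 206 kb upstream of HBE1 (chr11:5497594-5497688, plus strand): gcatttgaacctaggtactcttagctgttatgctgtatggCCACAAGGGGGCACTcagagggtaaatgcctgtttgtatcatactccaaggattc
Site 330 kb upstream of HBE1 (chr11:5621637-5621731, plus strand): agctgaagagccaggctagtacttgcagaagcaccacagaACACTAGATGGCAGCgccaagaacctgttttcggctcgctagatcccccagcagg

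The sites flanking the globin genes faced each other. The HBB-side site lay on the plus strand and the HBE1-side site on the minus strand, 86.5 kb apart, with all 5 genes between them. The HBB-side site, at a score of 13.9, passed the limit of 13.82 only narrowly, so the arrangement depends on where that limit is set. The cores of both sites had 12 of 15 letters in common. Going away from HBE1, the next sites lay on the minus strand at 111 kb, then on the plus strand at 206 and 330 kb. Another site, in a peak that fell just outside the window on the HBB side, also lay on the plus strand. Of all neighboring peaks with such a site, 25.7% of 14310 control pairs and 25.8% of 11156 PDS pairs faced each other, so this arrangement is common in both lists.

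**Figure D1:**
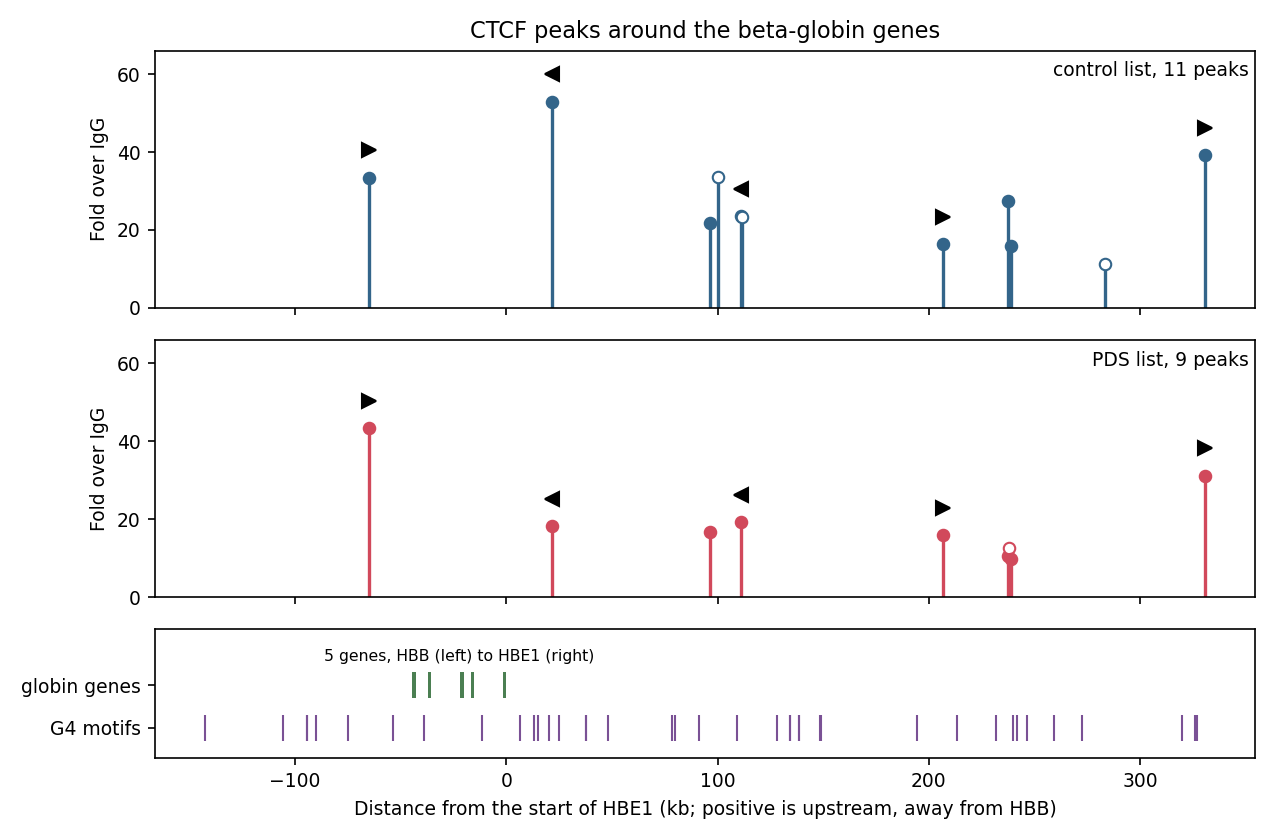
Fold enrichment over IgG (vertical axis, linear) of the 11 control peaks (top) and 9 PDS peaks (middle) against distance from the start of HBE1 in kb, with the 5 globin genes and the 41 G4 motifs of the window below. Filled circles are peaks shared between the lists, open circles are not, and black triangles give the direction of a weight-matrix site past the limit (right, plus strand). No peak lies over the genes, and the sites nearest to them on either side point inward.

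None of the 5 globin genes contained a CTCF peak in its main transcript, and none had a peak within 5 kb of it, in either list. All 5 genes lie on the minus strand of chromosome 11. HBE1, the embryonic epsilon chain (chr11:5289575-5291175, 1601 bp), was the closest of the 5 to the upstream peak, at 21.1 kb in the control and 21.3 kb in the PDS list. HBB, the adult beta chain (chr11:5246694-5248301, 1608 bp), was the closest to the downstream peak, at 20.3 and 20.4 kb. The 3 genes between them were farther from both.

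For HBG2, a fetal gamma chain (chr11:5274418-5276011, 1594 bp), the nearest control peak lay 36.3 kb upstream and the next 48.0 kb downstream. For HBG1, the other gamma chain (chr11:5269499-5271087, 1589 bp), these distances were 41.2 and 43.1 kb, so it sat close to the middle of the interval. For HBD, the minor adult delta chain (chr11:5254068-5255713, 1646 bp), they were 56.6 and 27.6 kb. In the PDS list every one of these distances was longer, because both flanking peaks were narrower there. Each of the 5 main transcripts has 3 exons. By gene records, which include the long upstream transcripts, 6 control and 4 PDS peaks fell within HBE1 and the same 6 and 4 within HBG2, and none within the other 3 genes.

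A single stretch without peaks covered all 5 genes. In the control list it ran for 85.86 kb from chr11:5226421 to 5312280, and in the PDS list for 86.2 kb from 5226301 to 5312500. Longer stretches made up 22.1% of the 33046 between neighboring control peaks, whose median was 28.14 kb. In the PDS list 20.9% of 32870 were longer, with a median of 22.3 kb. The stretch was therefore longer than most in both lists without being rare in either. The noncoding gene BGLT3 and the pseudogene HBBP1, which lie among the globin genes, had no peak either.

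Genes with a nearby CTCF peak were the majority across the genome. Of 20163 protein-coding genes, 59.9% had a control peak and 56.4% a PDS peak in or within 5 kb of the main transcript, against 0 of 5 globin genes in each list. A longer transcript has more room for a peak, and the genes were not matched for length. The 5 globin transcripts are 1589 to 1646 bp long and lie in a single stretch without peaks, so they are not independent cases. The cluster sits inside a large array of olfactory receptor genes, the odorant receptors of the nose, and these are a closer surrounding for comparison. Of 865 olfactory receptor genes and pseudogenes genome-wide, 7.05% had a control peak and 5.32% a PDS peak within 5 kb. In the window 6 of 26 did in the control list (OR52A5, OR51V1, OR51AB1P, OR51M1, OR52H1 and OR52H2P) and 4 of 26 in the PDS list, the first 4 of these names. No main transcript of an olfactory receptor gene in the window was overlapped by a peak. By gene records, 5 control and 3 PDS peaks fell within that of OR51B5.

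Missing peaks over HBG1 and HBG2 have to be read with the mapping filter in mind, since the authors discarded reads that mapped to several places. The main transcripts of HBG1 and HBG2 were 98.24% identical over 1588 aligned positions. Of their 50-base stretches, the read length in the labels, 47.5% (HBG1) and 47.6% (HBG2) occurred once in the genome. For HBE1 the share was 100%, and for HBD and HBB it was 98.7% each. Identity between HBD and HBB was 75.08%, and the other pairs of genes were at 65.6 to 69.2%. The share over the whole cluster was 92.27%. The part of mapping in the lack of peaks was not tested for the gamma genes or for HBE1, HBD and HBB.

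**Figure D2:**
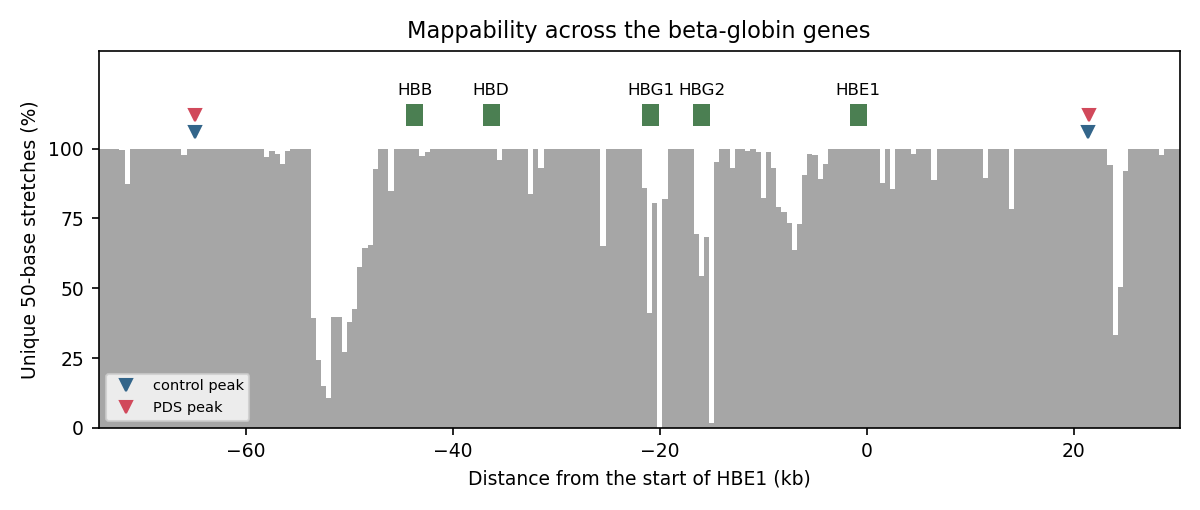
Share of 50-base stretches that occur once in the genome (vertical axis, percent) in consecutive bins against distance from the start of HBE1 in kb, with the 5 genes as green boxes and the flanking peaks as triangles. The share falls within HBG1 and HBG2, in a stretch downstream of HBB and in shorter ones elsewhere, among them between HBG2 and HBE1 and beyond the HBE1-side peak, whereas the flanking peaks of both lists lie in bins at or near 100%.

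The HBB-side peak was found in both lists at the same site. In the control list it covered chr11:5226001-5226420 (420 bp) with a fold of 33.4 over IgG and a p-value of 6.74e-14. In the PDS list it covered chr11:5226151-5226300 (150 bp) with a fold of 43.3 and a p-value of 4.06e-06. Both intervals contained the core site and overlapped an exon of a long noncoding RNA gene, ENSG00000224091. Its centre moved by 15 bp, while the control peak was 2.80 times as wide as the PDS peak, a ratio that 3.44% of the 24633 one-to-one pairs of the lists reached.

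Folds were computed over the IgG samples of the same condition, so they were compared between lists only as ranks. By fold, the HBB-side peak stood at rank 10619 of the control list (the top 32.1%) and at rank 568 of the PDS list (the top 1.73%), the highest in the window. By p-value it moved the other way, from rank 5809 (17.6%) in the control list to rank 29180 (88.6%) in the PDS list. The change by fold, 30.4 percentage points, was reached or passed by 33.1% of all pairs. The change by p-value, 71.1 points, was reached or passed by 0.101% of them. In the PDS list, 5 of 32917 peaks, this one included, combined a fold rank at least as high with a p-value rank at least as low.

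Wider peaks tended to have smaller p-values and, less closely, higher folds. Across the peaks of a list, width and p-value had a Spearman correlation of -0.791 (control, n = 33094) and -0.84 (PDS, n = 32917), and all peaks of a list share the same libraries. Width and rank by fold, where rank 1 is the highest fold, correlated at -0.345 and -0.442 over the same peaks. The HBB-side peak, which was narrower but ranked higher by fold in the PDS list, differed from this tendency. So did the peaks at 206 and 330 kb upstream of HBE1. The peak at 96.3 kb also ranked higher by fold in the PDS list, but it had the smallest width that occurs in each list. The HBE1-side peak and the peak at 237 kb were narrower in the PDS list and ranked lower by fold. Of the 4504 PDS peaks that were 150 bp wide, the median rank was the top 72.1% by p-value and 63.6% by fold. Among them, 28 had a fold as high as the HBB-side peak. With 1 value per condition, several possible sources of these changes cannot be told apart. They include CTCF occupancy at the HBB-side element, the IgG signal there and how the caller drew the peak.

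The HBE1-side peak was also found in both lists. In the control list it covered chr11:5312281-5312880 (600 bp) with a fold of 52.9, the highest in the window, and a p-value of 8.54e-13. In the PDS list it covered chr11:5312501-5312750 (250 bp) with a fold of 18.2 and a p-value of 3.99e-14. Its rank by fold went from 3248 (the top 9.81%) in the control to 13749 (41.8%) in the PDS list, a change of 31.95 points that 31.0% of pairs reached. By p-value it held nearly the same place, at rank 7370 (22.3%) and 8009 (24.3%). The control peak was 2.40 times as wide, a ratio reached by 5.65% of pairs, and its centre moved by 45 bp.

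By main transcripts this peak overlapped only an intron of ENSG00000239920, a coding gene record that reads through the region. Its site scored 17.1 on the matrix, in the top 19.5% of control and 15.1% of PDS peaks, whereas the HBB-side site scored 13.9, in the top 42.5% and 33.3%. Ranked by fold, the HBE1-side peak was the higher of the flanking peaks in the control list and the HBB-side peak in the PDS list. Ranked by p-value the order was the opposite in each list, with the HBB-side peak higher in control and the HBE1-side peak higher in PDS. Neither the order nor its change has a replicate check.

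**Figure D3:**
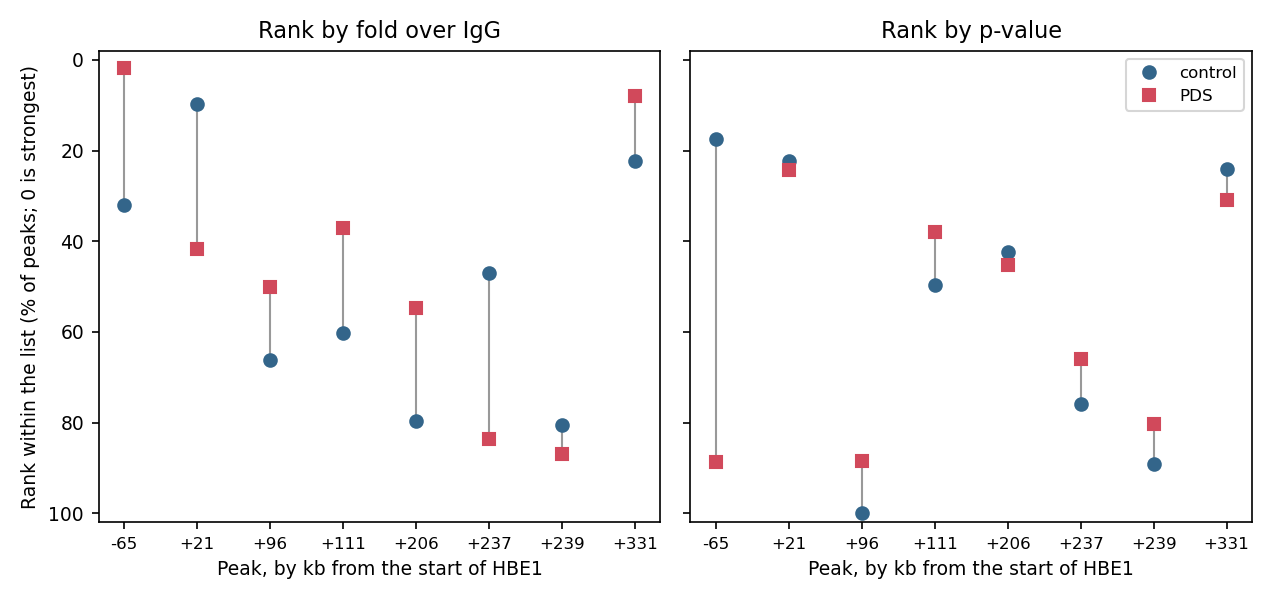
Rank of the 8 paired peaks within their lists (vertical axis, percent of peaks, strongest at the top) by fold over IgG (left) and by p-value (right), with control as circles and PDS as squares, ordered by distance from the start of HBE1 in kb. The HBB-side peak (-65 kb) moves up from 32.1% to 1.73% by fold and down from 17.6% to 88.6% by p-value, and the other 7 pairs differ by at most 11.7 points by p-value.

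A further 9 control and 7 PDS peaks lay upstream of HBE1, from 96.3 kb to 330 kb away. The peak at 96.3 kb was narrow in both lists, 120 bp (fold 21.9) in control and 100 bp (fold 16.7) in PDS cells, the smallest widths that occur in the lists. Its control p-value, 9.86e-06, ranked at 33047.5 of 33094, and its best matrix score was 7.62, below the limit. It was also the only peak of the window whose 50-base stretches were not all unique, at 91.5% (control) and 88.2% (PDS).

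The peak 111 kb upstream (chr11:5401981-5402340, control) had a fold of 23.6 at a width of 360 bp, and the PDS peak at this place a fold of 19.3 at 400 bp. It ranked at 60.2% by fold in the control and 37.01% in the PDS list, and its site scored 15.3. The peak 206 kb upstream carried the highest matrix score in the window, 19.9, in the top 5.23% of control and 4.03% of PDS peaks. It was 780 bp wide in the control list (fold 16.3), the widest of the window, and 200 bp in the PDS list (fold 16.0). The ratio of 3.90 was reached by 1.47% of pairs, and the PDS interval began 2 bp beyond the end of the core.

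The peaks at 237 and 239 kb had no matrix site past the limit. Their control folds were 27.5 and 16.0 and their PDS folds 10.6 and 9.77. The peak 330 kb upstream lay in an intron of TRIM6, which encodes a tripartite-motif ubiquitin ligase, and of the TRIM6-TRIM34 readthrough gene. It had folds of 39.2 (control, 420 bp) and 31.2 (PDS, 350 bp), which put it in the top 22.2% and 7.88% of the lists, the second highest of the window in each. Its matrix score was 14.3.

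Of the 11 control peaks, 8 overlapped a PDS peak by at least 1 bp (72.7%, Wilson 95% interval 43.4 to 90.2%), near the 78.0% of the whole control list. In the PDS list 8 of 9 peaks were shared (88.9%, 56.5 to 98.0%), and of all PDS peaks 78.6% were. These intervals cover counting error only. All 8 shared positions were one-to-one pairs, and in each pair the best matrix position was the same. The centres of a pair lay at most 100 bp apart, so the 300 bp searched around them largely overlapped and this agreement was likely beforehand. At 96.3, 237 and 239 kb that position did not pass the limit.

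Control peaks without a PDS partner lay at 100 kb, 111 kb and 283 kb upstream of HBE1. The first, chr11:5391181-5391360, had a fold of 33.7, a p-value of 9.41e-07 and a site on the minus strand with a score of 12.6, below the limit. It lay 3.53 kb from the nearest PDS peak. The second, chr11:5402641-5402760, was 120 bp wide (fold 23.2, p-value 9.25e-06) and lay 290 bp beyond the PDS peak at this place. The third, chr11:5574601-5574840, had the lowest control fold of the window, 11.2, with a p-value of 1.99e-09, and the nearest PDS peak was 44.4 kb away. The PDS peak without a control partner, chr11:5529251-5529350, lay 238 kb upstream of HBE1 and 430 bp from a control peak. It was 100 bp wide, with a fold of 12.6 and a p-value of 5.80e-06. None of the 4 had a matrix site past the limit.

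**Figure D4:**
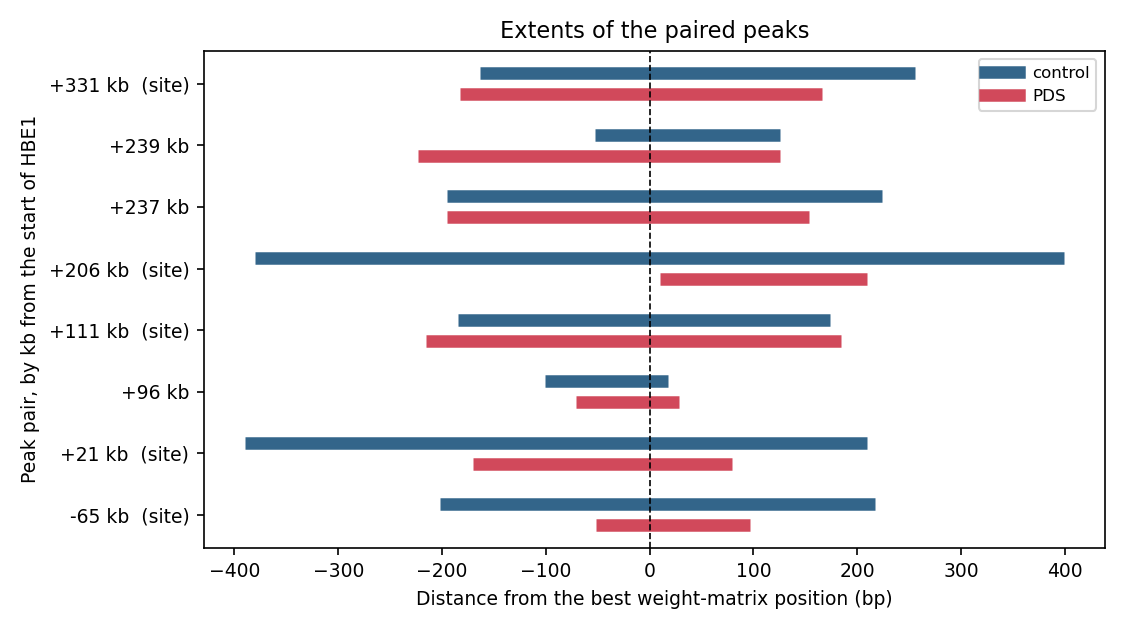
Extent of the 8 paired peaks in bp from their best weight-matrix position (horizontal axis), with the control peak above the PDS peak in each row and rows ordered by distance from the start of HBE1 in kb. Rows marked "site" have a matrix score past the limit. Control peaks are the wider in 6 of 8 rows, and at 206 kb the PDS peak lies to 1 side of the matrix position.

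Paired peaks were wider in the control list in 6 of 8 cases, against 46.9% of all one-to-one pairs, and the median control to PDS width ratio was 1.20 against 1.00. Peak intervals stepped by 60 bp in the control and 50 bp in the PDS list, so the widths are coarse. These steps were read from the intervals, whereas the methods name a single sliding window size for peak calling. The shift of the centres was small, with a median of 40 bp both here and over all pairs. By fold, the median change of rank was 24.1 points in the 8 pairs and 19.7 over all pairs. By p-value it was 9.43 and 10.8 points. Apart from the HBB-side peak, rank changes in the window were thus of the size seen across the lists.

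Of the 11 control peaks, 5 had a matrix site past the limit, as had 5 of 9 PDS peaks, beside 43.3% and 34.0% of the lists. The published CTCF consensus with at most 1 mismatch in its 11 scored letters matched 3 of 11 control peaks (27.3%, 9.75 to 56.6%) and 1 of 9 PDS peaks (11.1%, 1.99 to 43.5%), against 54.3% and 46.2% of the lists. The difference between the counts came from the control peak at 100 kb, which has no PDS partner, and from the site at 206 kb, which falls outside the edge of the PDS peak. Neither flanking peak had a consensus match, and their best matches had 2 mismatches.

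No peak of the window overlapped a G4 motif, here 4 runs of 3 or more G on 1 strand, separated by 1 to 7 other bases. The counts were 0 of 11 control peaks (upper Wilson limit 25.9%) and 0 of 9 PDS peaks (29.9%), while 16.0% of control and 17.1% of PDS peaks in the whole lists overlapped one. With numbers this small, a share equal to that of the lists lies inside both intervals. With the motif allowed within 1 kb, 2 of 11 (18.2%, 5.14 to 47.7%) and 2 of 9 peaks (22.2%, 6.32 to 54.7%) had one, against 43.8% and 46.8%. Motifs with runs of at least 2 G, a looser definition, overlapped 6 of 11 and 6 of 9 peaks, against 77.0% and 82.7%.

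The window held 41 G4 motifs, or 85.4 per Mb, compared with 155 per Mb on chromosome 11 and 133 per Mb over all chromosomes. Of these, 7 lay in the peak-free stretch and 2 of them between HBB and HBE1, none in a globin transcript. The nearest motif to a globin gene was 1.85 kb from HBD. A motif on the gene side of the HBE1-side peak lay 758 bp from its control edge, the closest of the window in that list, and 978 bp from its PDS edge. For PDS peaks the closest lay 811 bp from the peak at 239 kb. The HBE1-side motif and the 2 between the genes are given on the strand of their G runs, with the runs in capitals.
Between HBB and HBD (chr11:5252199-5252219, minus strand): GGGttgaGGGtGGGaagaGGG
Between HBG2 and HBE1 (chr11:5279748-5279778, plus strand): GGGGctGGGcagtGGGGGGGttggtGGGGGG
Beside the HBE1-side peak (chr11:5311493-5311523, minus strand): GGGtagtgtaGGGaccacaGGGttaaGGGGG

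The nearest G4 motif to the HBB-side peak was 9913 bp from the control and 10063 bp from the PDS interval. A motif says that the letters are present, and whether a G4 forms there in K562 cells was not tested. Peaks of the window were AT-richer than most, with a median GC content of 44.3% (range 35.8 to 52.5%) in the control and 46.8% (43.1 to 54.0%) in the PDS list, against 51.0% and 53.0% over the lists.

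Whether peaks were denser here than along the chromosome depended on the window. By gene records, the 11 control peaks came to 22.9 per Mb, with 14.4 per Mb on chromosome 11, and the 9 PDS peaks to 18.7 per Mb, with 14.9. Of 5711 consecutive tiles of the same length, 17.0% held at least 11 control peaks and 23.3% at least 9 PDS peaks. In each list 1 peak lay downstream of HBB and all others lay upstream of HBE1. By main transcripts the density was 12.3 per Mb in each list, below that of the chromosome.

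The window edge on the HBB side cut off a strong peak. It covered chr11:5145061-5145720 (fold 41.3) in the control and chr11:5145301-5145600 (fold 38.3) in the PDS list, 974 and 1094 bp outside the edge. It ranked in the top 19.5% and 3.24% by fold and in the top 19.9% and 53.3% by p-value, and its site on the plus strand scored 20.2. On the other side the first peak outside lay 78.9 kb beyond the edge in both lists, in an exon of TRIM5, with folds of 50.8 and 22.2. Inside the window, the outermost peaks were the HBB-side peak, far from its edge, and the peak at 330 kb.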

How the data were processed

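The series has 7 ChIP-seq samples of K562 cells in the 4 groups given above. The authors aligned reads to hg19 with Bowtie2 2.2.3, used SAMtools to drop duplicates, reads of low mapping quality and those with several places, and called peaks with PePr over IgG, jointly on both CTCF samples of a condition. The labels give single-end reads of 50 bases, whereas the methods describe paired-end libraries. The deposited fold of each peak is a ratio over IgG of the same condition as the authors computed it. The deposited p-value is the authors' unadjusted PePr value, at most 1e-05 in each list, whereas the methods name a looser cutoff. Peak scores were not used. Since the lists hold neither counts nor depth, conditions were not tested against each other, and no SD or precision per sample is given.

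Chromosome lengths of GRCh37 matched hg19, and gene positions came from the GRCh37 lift of GENCODE. All members and every window peak were named, the other genes where a peak overlapped them or by class (1 overlap is not reported here), and the 8 other globin genes as a fixed list. Members and lists were chosen with earlier results of these data known. The weight matrix, main transcripts, rank changes over pairs and width comparisons were added after the data were seen. The matrix was trained on 24263 shared control peaks outside chromosome 11, starting from 4156 consensus matches and ending with 10917 sites, and its limit came from 48521 flanking windows. A peak counted as shared from 1 bp of overlap. Ranks run from the highest fold or smallest p-value. Motif, overlap, uniqueness and matrix steps were tested on simulated data. There, 200 of 200 G4 motifs and 198 of 200 consensus matches planted in sequence of only A and T were found, a simpler setting than real peaks. Python 3.11.15, numpy 2.4.6, pandas 2.3.3, scipy 1.17.1, pysam 0.24.0, biopython 1.88, matplotlib 3.10.9 and samtools 1.23.1 were used. Alternatives covered the window, the overlap, stringency, merging, the motifs, the gene limits and the ranking.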

Additional observations from a re-analysis of the deposited data

How the results depend on the processing

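Of 44 alternatives, 22 left a count within 1.5 times the reported one, and the others are given here. They include 2 for ranks, to which this limit was not applied. When each list was limited to its 50% lowest p-values, the window held 6 control and 4 PDS peaks, 4 of each shared. By main transcripts it held 3 of each and no peak overlapped a member gene (0 and 0). With 250 kb on either side it held 14 PDS peaks. Asking for an overlap of 50% of both peaks left 5 shared in each list. Within 5 kb of the gene records lay 7 PDS peaks. G4 motifs with runs of 2 or more G overlapped 6 and 6 peaks, and 2 and 2 had a motif within 1 kb. At most 2 mismatches to the consensus matched 7 control and 5 PDS peaks, and the weight matrix 5 and 5. The median rank of the window peaks was the top 60.2% (control) and 50.0% (PDS) by fold and 49.6% and 65.9% by p-value. The causes were not tested, except that the narrower window and stricter lists hold fewer peaks by construction. No paired analysis was possible because peaks of both replicates were called together, and no replicate could be left out. Depth is unknown, so an absent peak means that none was called.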

Other observations

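Of 8 globin genes outside the cluster (HBZ, HBM, HBA2, HBA1 and HBQ1 of the alpha-globin cluster, and MB, CYGB and NGB), 3 had a peak within 5 kb in each list. Among all protein-coding genes, not matched for transcript length, the share was 59.9% in the control and 56.4% in the PDS list. The 3 genes were HBA1, the adult alpha chain, HBQ1, the theta chain beside it, and CYGB, cytoglobin. HBA1 and HBQ1 shared 2 peaks in each list, and both of these peaks overlapped a G4 motif, as did 16.0% of all control and 17.1% of all PDS peaks. The stronger had a fold of 55.5 in the control list, rank 2792, and of 23.1 in the PDS list, rank 7484. CYGB had 3 peaks, 1 with a G4 motif, and its strongest had a fold of 56.1 in the control (rank 2702) and 27.04 in the PDS list (rank 4460). The nearest control peak was 5.95 kb from MB, 6.27 kb from HBA2, 9.32 kb from HBZ, 13.2 kb from HBM and 29.9 kb from NGB. With 1 list per condition, no difference between these genes and the beta-globin genes was tested.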
